A study of Mus musculus with 8 samples.

Results

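The response of mouse liver to carbon tetrachloride (CCl4) in the absence of Il4 and Il13 was read from 4 of the 8 bead arrays of the study: 3 arrays of knockout liver after CCl4 and 1 array of knockout liver after vehicle. These were all the arrays labelled IL-4/IL-13-/-, and the 4 wild-type arrays were left out. The mice were Balb/c, aged 2 months, and treated and control liver alike lacked both cytokine genes, so the comparison varied the exposure and not the genotype. Dose, route, number of doses, interval before collection, hour of collection, vehicle, sex and whether an array held 1 animal or a pool had no entry in the sources used here. The array carried 16593 named genes, and the 6919 that were above background on every array of at least 1 group were tested.

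CCl4 is a solvent that the pericentral enzyme Cyp2e1 turns into a radical, which kills the hepatocytes around the central vein. Surviving hepatocytes then enter the cell cycle, phagocytes enter to clear debris, and stellate cells become contractile matrix-producing cells. Il4 and Il13 are the cytokines of type 2 immunity, which act through the Il4ra receptor and Stat6 on macrophages, stellate cells and hepatocytes.

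Each level below is a normalized log2 intensity, each difference is the mean of the 3 CCl4 arrays minus the vehicle array on that scale, and ± is its standard error (SE). A gene was called higher or lower where the adjusted p of the fit over all 6919 genes was under 0.05. The spread came from the 3 CCl4 arrays, and the test takes it to hold for the vehicle array too. Since separate animals are not stated for the arrays, the p-values speak for the spread among the 3 CCl4 arrays alone, and that spread may be technical. For a gene not above background on any array of 1 side, the fold is given as a bound, "at least N-fold", and its fitted difference has no fixed size.

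The CCl4 arrays correlated with each other at 0.988 across genes and with the vehicle array at 0.907. Per array, 9010 to 9593 of the 25697 probes were above background. The single probes for Il4 and Il13 were not above background on any of the 4 arrays, at lowest detection p-values of 0.509 and 0.0602, so they give no check of the genotype. Liver identity was plain: Ttr, the thyroid hormone carrier of plasma, stood at 14.06 on the vehicle array and 13.94, 13.79 and 13.85 on the CCl4 arrays. The summed intensity of the 5 hepatocyte markers was 62256 after vehicle and 57499 to 58842 after CCl4. The only Alb probe was close to background, with raw intensities of 83.8 to 101, and says little about albumin. Defining markers of T and natural killer cells (Cd3e, Cd3g, Nkg7, Klrd1) and of pancreas (Prss2, Cela2a, Cpa1) were not above background on any array. In whole liver RNA, fewer cells of a type and less RNA per cell cannot be told apart.

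After CCl4, 1248 genes were higher and 1214 were lower, which are 18% and 17.5% of the genes tested. The median difference over all genes was -0.02 and the median SE was 0.2. Of the called genes, 591 rose and 538 fell by at least 1 on the log2 scale (8.54% and 7.78% of genes tested), and 46 rose and 24 fell by at least 3. Among the 5938 genes above background on all 4 arrays, 16.2% were called higher and 15.7% lower. An order of the arrays is easily met in this design, since all 3 CCl4 arrays lay above the vehicle array for 39.5% of genes and below it for 41.6%. An exact rank test of 3 arrays against 1 cannot give a 2-sided p below 0.5, so every call rests on the fit across genes.

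**Figure D1:**
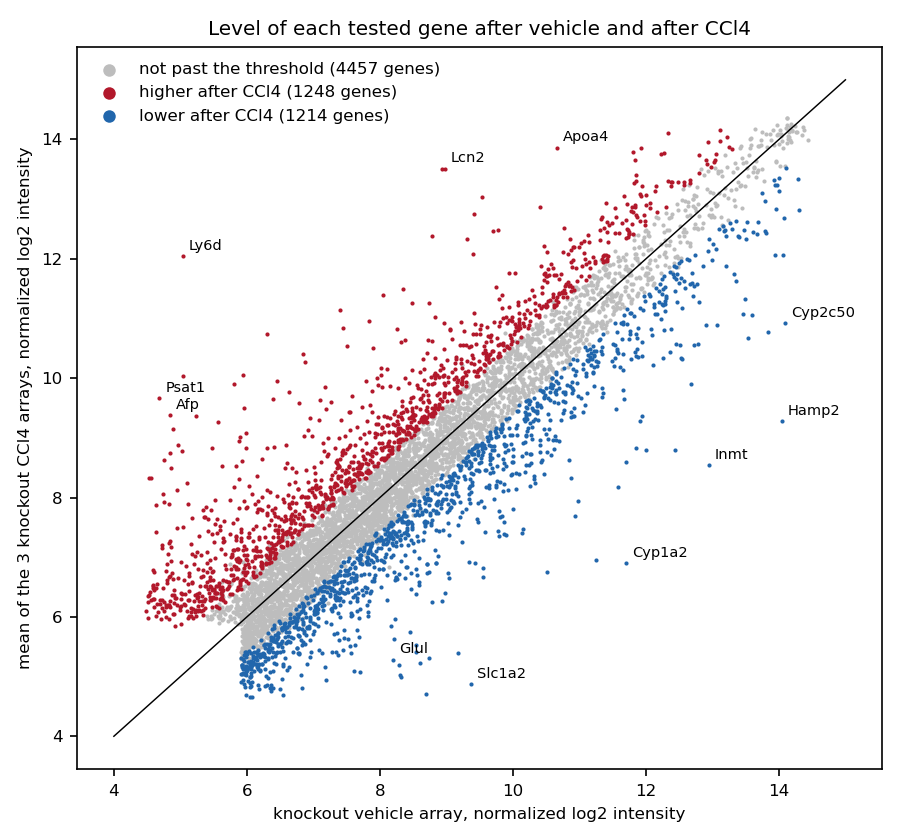
Normalized log2 intensity of each of the 6919 tested genes on the knockout vehicle array (x axis) against the mean of the 3 knockout CCl4 arrays (y axis), with the line of equal level. Red points are the 1248 genes called higher and blue points the 1214 called lower after CCl4; Ly6d lies farthest above the line, and Cyp1a2 and Hamp2 lie farthest below it.

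The largest increase was that of Ly6d, a membrane-anchored surface protein of the Ly6 family. Its level was 5.03 on the vehicle array and 11.97, 12.03 and 12.13 on the CCl4 arrays. It was not above background after vehicle, and the increase was at least 70.2-fold (adjusted p = 5.52e-07). Psat1, an enzyme of serine synthesis, rose from background to 9.51, 10.12 and 9.36, at least 13.4-fold. Afp, the albumin-like plasma protein of fetal liver, rose from background to 9.37, 9.82 and 8.97, at least 11.1-fold. All of their CCl4 arrays lay within about a unit of each other and far above vehicle. D17H6S56E-5 rose at least 17.4-fold, to 10.17, 10.22 and 9.70.

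Among the rest of the 15 largest increases, Cxcl1, a chemokine that attracts neutrophils, stood at 8.94 on the vehicle array and 13.79, 13.05 and 13.70 on the CCl4 arrays, a difference of 4.58 ± 0.29. Lcn2, a siderophore-binding protein of the acute phase, stood at 8.98 on the vehicle array and 13.17, 13.48 and 13.89 on the CCl4 arrays, a difference of 4.54 ± 0.27. Tnfrsf12a, the receptor for the cytokine TWEAK, stood at 6.31 on the vehicle array and 10.40, 11.12 and 10.69 on the CCl4 arrays, a difference of 4.43 ± 0.27. These 3 genes were already above background after vehicle, so both sides of the change were measured. Spink1, a trypsin inhibitor, rose at least 9.47-fold to 9.33, 9.05 and 9.09, and Wfdc3, a small protein with a WAP protease inhibitor domain, rose at least 6.61-fold to 8.78, 8.72 and 8.40. Socs3, the feedback inhibitor of STAT3 signalling, rose at least 10.9-fold to 9.77, 8.65 and 9.66. The remaining members belonged to cell division (Stmn1, Birc5, Cdk1), neutrophil granules (Prtn3) and the immediate early response (Fos), described with their groups.

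The largest decrease between levels measured on both sides was that of Cyp1a2, a pericentral P450 that metabolizes caffeine. It stood at 11.70 on the vehicle array and 7.39, 5.94 and 7.37 on the CCl4 arrays, a difference of -4.80 ± 0.50 (adjusted p = 0.000291), and CCl4 replicate 2 was lowest. Hamp2, the second mouse hepcidin gene, stood at 14.04 on the vehicle array and 9.63, 9.05 and 9.15 on the CCl4 arrays, a difference of -4.76 ± 0.25. Hamp, which codes for the iron hormone hepcidin itself, was at 13.97 on the vehicle array and 13.99, 14.13 and 14.13 on the CCl4 arrays and did not pass the test (adjusted p = 0.671). The neighbouring hepcidin genes thus gave different values; probes for near-identical genes such as these, the Saa, Mup, Gst, Ces and Cyp2 families can pick up each other's transcripts.

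Of the other large decreases, Inmt, a methyltransferase for small amines, stood at 12.95 on the vehicle array and 9.35, 7.45 and 8.83 on the CCl4 arrays, a difference of -4.40 ± 0.58. Its CCl4 arrays were widely spread, and with a trended robust variance the call was lost (adjusted p = 0.0864). Slc1a2, a glutamate transporter of pericentral hepatocytes, stood at 9.37 after vehicle and was not above background after CCl4, at least 11.8-fold lower. Thrsp, a protein that promotes fat synthesis, stood at 10.52 on the vehicle array and 7.03, 6.54 and 6.66 on the CCl4 arrays, a difference of -3.77 ± 0.23. Depp1, a target of FOXO factors, stood at 11.26 on the vehicle array and 6.16, 7.12 and 7.56 on the CCl4 arrays, a difference of -4.31 ± 0.44. Another 6 of the 15 decreases ended below background on every CCl4 array: Rgs16, a brake on G protein signalling, at least 7.41-fold lower; Macrod1, a hydrolase of ADP-ribose marks, at least 10.3-fold; Sucnr1, the succinate receptor, at least 7.6-fold; Slc22a26, an organic anion transporter, at least 6.92-fold; Rcan2, a calcineurin regulator, at least 5.7-fold; and Hsd3b5, a steroid dehydrogenase, at least 5.64-fold. The vehicle levels of these 6 genes ran from 8.31 to 9.17. Cyp2b13, Ces3b and Ugt3a1, enzymes of drug and lipid ester metabolism, fell by differences of -3.63, -3.41 and -3.23 and remained detectable on all 3 CCl4 arrays.

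**Figure D2:**
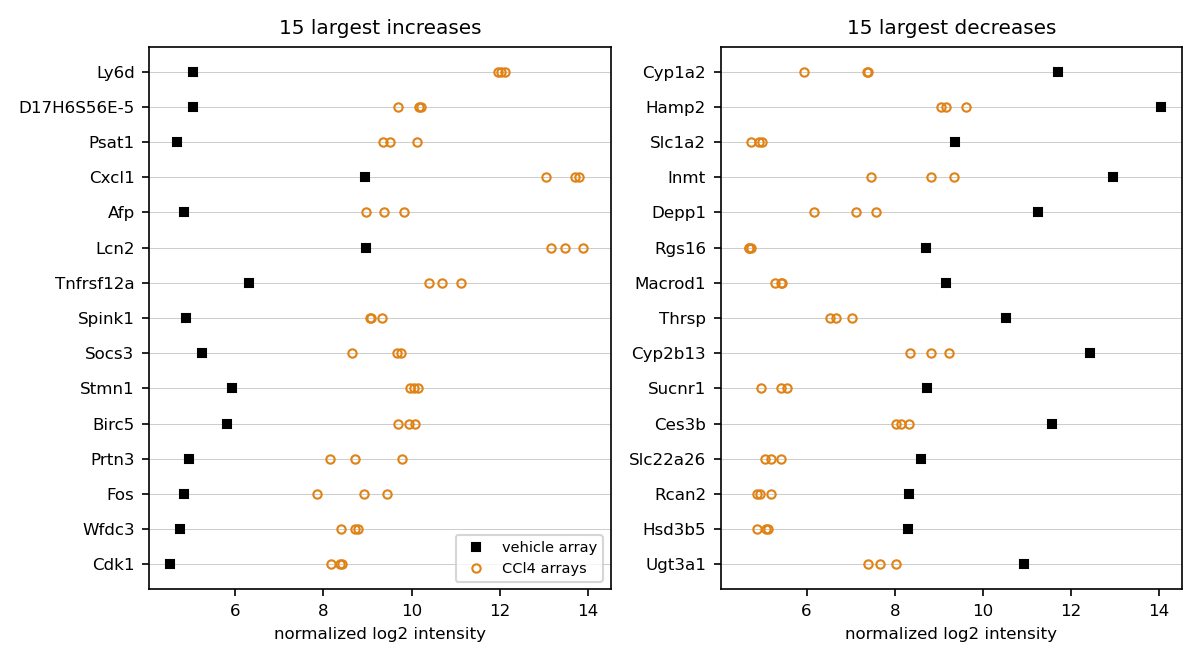
Normalized log2 intensity (x axis) on the vehicle array (black square) and on each of the 3 CCl4 arrays (open circles) for the 15 largest increases and the 15 largest decreases. The 30 genes were chosen so that all CCl4 arrays lie on 1 side of the vehicle array. Cyp1a2, Inmt, Prtn3 and Fos have the widest spread among CCl4 arrays.

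Genes of the pericentral zone, where Wnt signals keep up P450 and glutamine-forming enzymes, were mostly lower: of 28 tested of 35 on the array, 19 fell and 2 rose, with a median difference of -1.20 against -0.02 over all genes. Among the 23 above background on all 4 arrays, 15 fell and 1 rose. Glul, glutamine synthetase, is restricted to the hepatocytes that touch the central vein. Its level was 8.20 after vehicle and it was not above background on any CCl4 array, at least 5.23-fold lower (adjusted p = 5.04e-05). Cyp2e1, the enzyme that activates CCl4, stood at 13.94 on the vehicle array and 12.04, 11.95 and 12.18 on the CCl4 arrays, a difference of -1.89 ± 0.19. Oat, ornithine aminotransferase, a Wnt target of the same cells, stood at 13.46 on the vehicle array and 11.01, 11.23 and 11 on the CCl4 arrays, a difference of -2.38 ± 0.19. Cyp2c50 and Cyp2c37, pericentral P450s, stood at 14.08 and 13.84 after vehicle and fell by differences of -3.16 ± 0.21 and -3.06 ± 0.25. Prodh, which breaks down proline, fell by a difference of -2.73 ± 0.40. Of the feedback genes of Wnt signalling, Notum, a secreted inhibitor, stood at 8.24 on the vehicle array and 6.64, 6.75 and 6.61 on the CCl4 arrays and fell, whereas Axin2 rose from background to 6.21, 6.54 and 6.18, at least 1.32-fold. Slc1a4, a neutral amino acid transporter, also rose, by 1.03 ± 0.24, a call that was lost without CCl4 replicate 2 (adjusted p = 0.0509).

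The P450 genes of families 1 to 4 followed the same direction in most members, with 22 of 35 lower, 2 higher and a median of -1.15. Pericentral P450 genes such as Cyp1a2 are counted on both lists, so the 2 counts are not independent. Members of the periportal zone were among the P450 genes that fell. Cyp2f2, a periportal P450, stood at 13.07 on the vehicle array and 11.11, 10.47 and 11.11 on the CCl4 arrays, a difference of -2.17 ± 0.27. Cyp3a11, the main drug-metabolizing P450 of its family, had 13.03, 12.21 and 12.41 after CCl4 against 13.16 and did not pass the test (adjusted p = 0.139), though it did without CCl4 replicate 1 (a difference of -0.86, adjusted p = 0.0164). The 2 that rose were Cyp2c55, at 6.42 on the vehicle array and 9.62, 8.83 and 8.07 on the CCl4 arrays, a difference of 2.43 ± 0.47, and Cyp4f16, a difference of 1.17 ± 0.22. The call of Cyp2c55 was lost with a trended robust variance (adjusted p = 0.0881) and with all probes tested (adjusted p = 0.0773).

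Of 33 tested conjugating enzymes, 16 fell (48.5%) and 6 rose (18.2%), against 17.5% and 18% of all genes, so the share that rose was that of all genes. Every glucuronosyl- and sulfotransferase that was called fell: Ugt1a2, Ugt3a1, Ugt3a2, Ugt1a10, Ugt1a6a, Ugt2b1, Ugt2a3, Sult2a8 and Sult1c2. Sult2a8, which sulfates bile acids, stood at 12.001 on the vehicle array and 9.02, 8.48 and 8.90 on the CCl4 arrays, a difference of -3.20 ± 0.24. All 6 that rose were glutathione transferases, of which others fell. Gsta1, an alpha-class enzyme, stood at 7.89 on the vehicle array and 10.71, 10.11 and 10.72 on the CCl4 arrays, a difference of 2.62 ± 0.27. Gstp1, of the pi class, stood at 12.23 on the vehicle array and 13.72, 13.72 and 13.81 on the CCl4 arrays, a difference of 1.52 ± 0.18, and its near-identical neighbour Gstp2 rose by 1.79 ± 0.34. Gstm6 and Gstk1 fell by differences of -1.64 ± 0.20 and -1.24 ± 0.19.

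Periportal and urea cycle genes also fell more often than they rose, 14 of 28 against 2, or 1 without CCl4 replicate 2. Etnppl, a phospholyase, stood at 9.89 on the vehicle array and 7.57, 7.18 and 7.39 on the CCl4 arrays, a difference of -2.52 ± 0.21. In the urea cycle, Otc and Asl fell by differences of -1.26 ± 0.26 and -1.43 ± 0.28 and Ass1 by -0.64 ± 0.19, while Cps1, its first enzyme, was at 13.62 on the vehicle array and 13.68, 13.44 and 13.48 on the CCl4 arrays and Arg1 at 13.69 on the vehicle array and 13.46, 13.43 and 13.56 on the CCl4 arrays, neither past the test. The call of Ass1 was lost without CCl4 replicate 2 (adjusted p = 0.0727). Apoa4, an apolipoprotein on this list, went the other way: it stood at 10.66 on the vehicle array and 13.84, 13.85 and 13.90 on the CCl4 arrays, a difference of 3.20 ± 0.18 (adjusted p = 1.97e-05).

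Among 58 tested genes of hepatocyte identity and secreted proteins, 21 fell and 2 rose, or 1 without any 1 of the CCl4 replicates, with a median of -0.28. Apoa1, the main protein of high-density lipoprotein, had 14.17, 14.15 and 14.13 after CCl4 against 14.20, a difference of -0.06 ± 0.18 that did not pass the test. Of the transcription factors, Cebpa, which maintains differentiated hepatocytes, stood at 8.71 on the vehicle array and 6.71, 6.99 and 6.98 on the CCl4 arrays, a difference of -1.82 ± 0.20. Hnf4a, the central hepatocyte factor, differed by -0.07 ± 0.20 and did not pass the test, and Foxa3 rose by 0.92 ± 0.19. Car3, a carbonic anhydrase of pericentral cells, stood at 13.54 on the vehicle array and 10.86, 10.19 and 10.98 on the CCl4 arrays, a difference of -2.86 ± 0.30. Masp1, a complement protease, and F12, a coagulation factor, fell by differences of -1.81 ± 0.19 and -1.43 ± 0.22. Of 5 major urinary protein genes, Mup20 rose by 0.93 ± 0.25 and no other was called; without CCl4 replicate 2 its adjusted p was 0.05003.

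Growth hormone acts on liver through STAT5 and sets much of its sex bias. Of 22 genes of this axis, 8 fell (36.4%) and 3 rose (13.6%), against 17.5% and 18% of all genes. Of the 18 above background on all 4 arrays 6 fell and 2 rose. Ghr, the growth hormone receptor, stood at 12.51 on the vehicle array and 10.60, 10.42 and 10.64 on the CCl4 arrays, a difference of -1.96 ± 0.19. Igfals and Igf1, which circulate as a complex, fell by differences of -1.53 ± 0.19 and -0.78 ± 0.18. Bcl6, a repressor of STAT5 targets, stood at 10.15 on the vehicle array and 7.53, 7.15 and 7.75 on the CCl4 arrays, a difference of -2.68 ± 0.25. Cish, a STAT5 feedback inhibitor, rose from 6.85 to 9.30, 9.14 and 8.66, a difference of 2.18 ± 0.26, and Igfbp1 rose by 1.82 ± 0.34. Of 21 sex-biased liver genes, 14 fell and 2 rose, or 0 without CCl4 replicate 2 and 1 without replicate 1 or 3. Members that fell included genes higher in males, such as Hsd3b5 above and Cyp7b1 (-1.79 ± 0.21), and genes higher in females, such as Cyp2b13 above, Cyp2b9 (-2.20 ± 0.23) and Hao2 (-2.06 ± 0.20). The fall was not confined to 1 direction of sex bias. Xist, the transcript of the inactive X chromosome, was above background on all 4 arrays. Its raw intensity was 331 on the vehicle array and 1905, 1636 and 2104 on the CCl4 arrays. The Y-linked Eif2s3y, Kdm5d and Usp9y were above background on none, and the Y-linked Uty dimly on 3. Raw intensities of Uty were 114.5 on the vehicle array and 95.5, 69.3 and 103.8 on the CCl4 arrays. Sex is not labelled, and whether it differed between the vehicle and CCl4 livers was not tested.

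Among lists with at least 10 tested members, fatty acid synthesis had the highest share of lower genes with all 4 arrays. Without CCl4 replicate 2 it did not, and the share was higher for cholesterol synthesis. Of 25 tested genes of fatty acid and triglyceride synthesis, 20 fell and 0 rose (16 and 0 of the 20 above background on all 4 arrays), with a median of -1.08 against -0.02 over all genes; limma gave 0 members higher at an unadjusted p under 0.05 either. Acss2, which makes acetyl-CoA from acetate, stood at 11.70 on the vehicle array and 8.92, 8.37 and 8.52 on the CCl4 arrays, a difference of -3.10 ± 0.24. A second, dimmer Acss2 probe fell less, by a difference of -1.16. Scd1, the stearoyl-CoA desaturase, stood at 13.60 on the vehicle array and 11.45, 10.66 and 11.08 on the CCl4 arrays, a difference of -2.53 ± 0.28. Pklr, liver pyruvate kinase, stood at 8.46 on the vehicle array and 5.58, 5.83 and 5.83 on the CCl4 arrays, a difference of -2.71 ± 0.20. On CCl4 replicates 1 and 2 it lay under the lowest detected signal (5.75 and 5.94), so the size of its fall is uncertain. Slc25a1, the citrate carrier, and Me1, malic enzyme, fell by differences of -1.75 ± 0.19 and -1.79 ± 0.18. Of the regulators, Srebf1 stood at 9.04 on the vehicle array and 8.07, 7.66 and 7.62 on the CCl4 arrays and fell, whereas Mlxipl, which codes for ChREBP, had a difference of 0.44 ± 0.23 and did not pass the test.

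Cholesterol synthesis enzymes fell in 12 of 18 members and rose in 0, also 0 at an unadjusted p under 0.05 in limma, with a median of -1.18. All 18 were above background on every array. The promoters of several members are shown because a CCAAT box, the site of the factor NF-Y, lies close to their starts. The 110 bases before the start are given 5′ to 3′ along the gene (RefSeq, GRCm38.p6), with CCAAT or its reverse complement ATTGG in capitals.
Tm7sf2, chr19:6067851-6067960, minus strand: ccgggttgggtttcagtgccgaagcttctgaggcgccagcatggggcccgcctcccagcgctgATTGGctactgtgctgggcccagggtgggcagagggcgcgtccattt
Sc5d, chr9:42264301-42264410, minus strand: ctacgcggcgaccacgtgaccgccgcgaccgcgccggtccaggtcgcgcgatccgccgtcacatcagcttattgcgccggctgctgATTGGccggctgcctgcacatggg
Nsdhl, chrX:72918411-72918520, plus strand: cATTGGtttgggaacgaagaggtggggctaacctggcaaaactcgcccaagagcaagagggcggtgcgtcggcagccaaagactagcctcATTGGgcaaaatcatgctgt
Mvd, chr8:122443423-122443532, minus strand: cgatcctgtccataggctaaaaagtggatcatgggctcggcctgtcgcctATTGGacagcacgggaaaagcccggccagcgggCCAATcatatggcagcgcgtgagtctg
CCAAT on either strand occurred in the 250 bases before the start in 14 of the 15 members with a listed promoter (93.3%), against 37.4% of the promoters of tested genes and 34.5% of all 27025 listed promoters. The sterol element TCACCCCAC occurred in 1 of the 15 (6.67%), against 0.475% of promoters of tested genes. CCAAT was also in 20 of 26 promoters (76.9%) of the endoplasmic reticulum stress, ATF4 and serine synthesis list described below. Of the 28 tested members of that list, 6 rose and 4 fell. The mitosis list, whose called members all rose, held CCAAT in 22 of 36 promoters (61.1%). A match is a description of the letters and not a measured site.

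Of the 4 genes whose promoters are printed, Tm7sf2, a sterol reductase, stood at 9.55 on the vehicle array and 6.51, 6.87 and 6.61 on the CCl4 arrays, a difference of -2.89 ± 0.21 (adjusted p = 5.04e-05). Sc5d, a sterol desaturase, stood at 8.60 on the vehicle array and 6.57, 6.66 and 6.54 on the CCl4 arrays, a difference of -2.01 ± 0.18. Nsdhl, a sterol dehydrogenase, and Mvd, mevalonate diphosphate decarboxylase, fell by differences of -1.73 ± 0.19 and -1.57 ± 0.20. Fdps, which makes farnesyl diphosphate, stood at 12.36 on the vehicle array and 10.37, 10.67 and 10.28 on the CCl4 arrays, a difference of -1.92 ± 0.21. Hmgcs1, an early enzyme of the pathway, fell by -1.01 ± 0.25 in difference, with 12.07, 12.67 and 12.39 against 13.38. Sqle, squalene epoxidase, had CCl4 arrays on both sides of the vehicle array (9.51, 10.15 and 9.87 against 9.86) and a difference of -0.01 ± 0.25.

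Bile acid genes fell in 14 of 29 members and rose in 2. Cyp7a1, the first enzyme of the classical pathway, stood at 9.88 on the vehicle array and 11.11, 10.20 and 10.95 on the CCl4 arrays, a difference of 0.88 ± 0.33 that missed the threshold (adjusted p = 0.0663) but passed it without CCl4 replicate 2 (a difference of 1.16, adjusted p = 0.0188). The later enzymes were lower: Cyp8b1, which directs synthesis to cholic acid, stood at 11.86 on the vehicle array and 8.32, 9.10 and 9.06 on the CCl4 arrays, a difference of -3.03 ± 0.30, and Cyp27a1 stood at 11.67 on the vehicle array and 9.64, 9.54 and 9.75 on the CCl4 arrays, a difference of -2.02 ± 0.19. Slc27a5, which activates bile acids for conjugation, fell by -1.89 ± 0.19 in difference. Among transporters, Slco1b2, an uptake carrier, fell from 10.32 to 8.35, 8.04 and 8.70, Abcg8, a subunit of the sterol exporter, from 9.79 to 8.15, 7.84 and 7.33, and Abcb11, the bile salt export pump, from 11.57 to 10.54, 10.41 and 10.44. The 2 that rose were Slc51b, a subunit of an exporter, by 1.22 ± 0.26, and the exporter Abcc2, by 0.71 ± 0.19. Slc51a, the other subunit beside Slc51b, was not above background on any array. The call of Abcc2 was lost without CCl4 replicate 2 (adjusted p = 0.0586) and with the mean of its probes (a difference of 0.26, adjusted p = 0.261), and a fit over all 8 arrays called 9 bile acid genes lower.

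Fatty acid oxidation genes fell in 7 of 31 members and rose in 2, or 0 without CCl4 replicate 2, with a median of -0.17. The list's shares were 22.6% lower and 6.45% higher, against 17.5% and 18% of all genes. The members that fell most were peroxisomal: Acaa1b, a thiolase, stood at 13.48 on the vehicle array and 11.42, 11.64 and 10.92 on the CCl4 arrays, a difference of -2.16 ± 0.27, Acot3, a thioesterase, had a difference of -2.15 ± 0.23, and Ehhadh, the bifunctional enzyme, -1.53 ± 0.20. Decr2, a peroxisomal reductase, fell by -1.28 ± 0.19 in difference. Cyp4a14, a target of the receptor PPARα, had 10.11, 10.88 and 9.65 against 9.23 and did not pass the test, though it did without CCl4 replicate 3 (a difference of 1.27, adjusted p = 0.0182).

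Glucose genes fell in 12 of 27 members and rose in 5, or 3 without CCl4 replicate 3. The shares of the 27 were 44.4% lower and 18.5% higher, against 17.5% and 18% of all genes. Among the 21 above background on all 4 arrays, 7 fell and 5 rose. G6pc, which releases free glucose, stood at 12.68 on the vehicle array and 9.98, 9.58 and 10.16 on the CCl4 arrays, a difference of -2.77 ± 0.24. Pck1, the entry step of gluconeogenesis, stood at 10.01 on the vehicle array and 8.14, 7.30 and 7.996 on the CCl4 arrays, a difference of -2.19 ± 0.31. The glucose transporter Slc2a2 and the glycogen synthase Gys2 fell by differences of -1.43 ± 0.19 and -1.51 ± 0.19. Of the members that rose, Ldha, lactate dehydrogenase A, stood at 11.92 on the vehicle array and 13.73, 14.12 and 13.75 on the CCl4 arrays, a difference of 1.94 ± 0.22, and Pkm, the muscle and proliferation type of pyruvate kinase, rose by 1.10 ± 0.22 while Pklr, as above, fell. Of 13 clock genes, 4 fell and 0 rose, also 0 at an unadjusted p under 0.05 in limma, and 2 of the 10 above background on all 4 arrays fell. Without CCl4 replicate 3, 1 clock gene was called higher. Nr1d1, a repressor in the clock, fell from 8.22 to 5.53, 6.03 and 5.36. On CCl4 replicates 1 and 3 it lay under the lowest detected signal (5.75 and 5.74), so the size of its fall is uncertain. Dbp, an output factor, fell from 9.87 to 7.37, 7.93 and 7.45. The activators of Nr1d1 and Dbp, Arntl and Clock, differed by 0.24 ± 0.18 and 0.36 ± 0.18 and did not pass the test.

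Of 47 tested genes of mitosis and the spindle, 42 rose and 0 fell, or 1 at an unadjusted p under 0.05 in limma. Of 44 of DNA replication and the G1/S step, 34 rose and 3 fell, or 1 without CCl4 replicate 2 or 3. Of the mitosis members, 26, and of the replication members, 12, were not above background after vehicle and passed the filter only through the CCl4 arrays, so they had to be higher. Among the 19 members above background on all 4 arrays, 15 rose and 0 fell, with a median of 1.40, against 16.2% and 15.7% of all such genes. Among 30 such replication genes, 24 rose and 2 fell, with a median of 1.05. A further 37 mitosis genes on the array were not tested.

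Mitotic genes are switched on late in the cycle through a promoter element called CHR (TTTGAA), often with a CCAAT box. The promoters of 4 members that rose and hold both are shown over the same span, with TTTGAA (or its reverse complement TTCAAA) and the letters CCAAT (or ATTGG) in capitals (RefSeq, GRCm38.p6).
Cdk1, chr10:69352913-69353022, minus strand: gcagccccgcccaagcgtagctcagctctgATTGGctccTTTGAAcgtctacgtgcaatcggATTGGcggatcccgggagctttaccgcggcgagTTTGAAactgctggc
Cdc20, chr4:118437344-118437453, minus strand: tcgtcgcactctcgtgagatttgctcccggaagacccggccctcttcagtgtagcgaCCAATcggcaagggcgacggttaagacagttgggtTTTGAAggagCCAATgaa
Top2a, chr11:99024190-99024299, minus strand: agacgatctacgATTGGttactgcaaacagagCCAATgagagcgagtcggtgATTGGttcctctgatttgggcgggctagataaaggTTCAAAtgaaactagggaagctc
Kif22, chr7:127042421-127042530, minus strand: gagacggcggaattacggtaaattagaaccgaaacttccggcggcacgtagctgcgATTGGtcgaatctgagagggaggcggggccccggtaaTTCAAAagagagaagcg
Within 250 bases before the start, 12 of the 36 tested mitosis genes with a listed promoter held TTTGAA on either strand (33.3%), against 10.9% of the promoters of tested genes and 16.3% of all listed promoters. CCAAT was held by 22 of the 36 (61.1%, against 37.4%), and both by 10 (27.8%, against 4.33%). Each motif was scanned for by itself, so a match was counted also where its letters overlapped those of another.

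Cdk1, the kinase that starts mitosis, was at background after vehicle (4.52) and at 8.17, 8.41 and 8.39 after CCl4, at least 5.32-fold higher (adjusted p = 1.42e-05). Cdc20, the activator of the anaphase-promoting complex, stood at 5.96 on the vehicle array and 9.69, 9.47 and 9.33 on the CCl4 arrays, a difference of 3.54 ± 0.21. Top2a, which untangles DNA, rose at least 2.03-fold to 7.26, 6.90 and 6.64, and Kif22, a chromosome-arm kinesin, at least 3.15-fold to 7.80, 7.59 and 7.32. Birc5, survivin, a subunit of the chromosomal passenger complex, rose from 5.81 to 9.70, 10.08 and 9.95, at least 16-fold. Stmn1, which destabilizes microtubules, stood at 5.94 on the vehicle array and 10.05, 9.96 and 10.14 on the CCl4 arrays, a difference of 4.11 ± 0.19. Of the genes measured on both sides, Mad2l1, a spindle checkpoint protein, stood at 6.85 on the vehicle array and 10.46, 10.19 and 10.57 on the CCl4 arrays, a difference of 3.56 ± 0.21. Cenpa, the centromere histone, stood at 8.35 on the vehicle array and 11.65, 11.32 and 11.53 on the CCl4 arrays, a difference of 3.15 ± 0.20, and Prc1, of the midzone, 6.40 on the vehicle array and 9.84, 9.36 and 9.74 on the CCl4 arrays, a difference of 3.25 ± 0.23. Cdca3, a mitotic entry protein, rose by 3.39 ± 0.18. Bub3, a checkpoint protein, had 6.17, 6.09 and 5.48 against 6.52 and did not pass the test.

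Earlier cell cycle steps were higher too. Ccnd1, the cyclin of G1 entry, was well above background after vehicle and stood at 10.47 on the vehicle array and 12.24, 12.13 and 12.25 on the CCl4 arrays, a difference of 1.74 ± 0.18. Ccne1, the cyclin of S phase entry, rose at least 2.25-fold. Mcm5, a subunit of the replicative helicase, stood at 6.30 on the vehicle array and 9.18, 8.79 and 8.54 on the CCl4 arrays, a difference of 2.54 ± 0.26, and Mcm6, 6.08 on the vehicle array and 8.40, 8.12 and 7.67 on the CCl4 arrays, a difference of 1.98 ± 0.27. Tyms, thymidylate synthase, rose by 2.15 ± 0.24 and Tk1, thymidine kinase, by 1.21 ± 0.19. Uhrf1, which copies DNA methylation, rose at least 7.56-fold to 9.17, 8.69 and 8.63. Pcna, the sliding clamp, had 8.06, 7.28 and 7.40 against 6.86 and missed the threshold (adjusted p = 0.0901), and Pold2, a polymerase delta subunit, fell by -0.83 ± 0.20 in difference. H2az1, the histone variant H2A.Z, rose by 2.77 ± 0.18. Ribosome biogenesis genes, which feed growth, rose in 7 of 22 members (4 in a fit over all 8 arrays) and fell in 0, also 0 at an unadjusted p under 0.05 in limma. Gnl3, nucleostemin, rose by 1.29 ± 0.18 and Nop58 by 1.19 ± 0.19.

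Immediate early genes, the first transcripts made after a signal, rose in 11 of 25 members and fell in 1. Among the 20 above background on all 4 arrays, 7 rose. Egr1 stood at 8.04 on the vehicle array and 10.97, 11.54 and 11.66 on the CCl4 arrays, a difference of 3.35 ± 0.27. Fos was at background after vehicle (4.84) and at 7.86, 8.93 and 9.44 after CCl4, at least 7.12-fold higher, with replicate 1 lowest. Its partners Jun and Junb rose to 7.77, 7.88 and 8.20 (at least 4.11-fold) and 9.06, 8.65 and 8.94 (a difference of 2.30 ± 0.21). Ier3 rose by 2.69 ± 0.34 and Id1, a target of BMP signals, by 2.67 ± 0.25. Dusp1, a MAP kinase phosphatase, fell, with 9.46, 9.25 and 9.92 against 10.41, a call lost without CCl4 replicate 1 (adjusted p = 0.0561) or 2 (0.0989), while Dusp6, an ERK phosphatase, rose by 1.19 ± 0.22.

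Of 24 p53 targets, 8 rose and 3 fell. Among the 20 above background on all 4 arrays, 5 rose and 3 fell with a median of 0.12, against 16.2% and 15.7% of all such genes. Cdkn1a, the cell cycle inhibitor p21, stood at 6.78 on the vehicle array and 9.51, 9.51 and 9.72 on the CCl4 arrays, a difference of 2.80 ± 0.19. Mdm2, the ubiquitin ligase of p53, stood at 8.11 on the vehicle array and 10.09, 10.20 and 10.17 on the CCl4 arrays, a difference of 2.04 ± 0.18, and Ccng1, cyclin G1, rose by 1.84 ± 0.19. Phlda3, an Akt inhibitor, rose at least 3.01-fold. Bbc3, which codes for the death protein PUMA, went the other way, from 8.73 to 6.68, 6.67 and 6.89. In the Bcl2 family and cell death list, 4 of 19 rose and 2 fell, close to the 18% and 17.5% of all genes; Bad, a sensitizer, rose by 1.09 ± 0.19 and Bik fell by -1.16 ± 0.19 in difference.

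The stress response lists stand beside 18% higher and 17.5% lower over all genes. Of 27 NRF2 targets and metallothioneins, 6 rose (22.2%) and 7 fell (25.9%), or 4 without CCl4 replicate 2 or 3. Nqo1 and Hmox1, 2 classical NRF2 targets, had differences of 0.43 ± 0.23 and 0.59 ± 0.20 and did not pass the test, and Gclc, of glutathione synthesis, fell by -0.70 ± 0.21 in difference, a call lost without replicate 2 (adjusted p = 0.0671) or 3 (0.0596). Mt2, a metallothionein, rose from background to 8.71, 8.05 and 8.85, at least 6.17-fold, while Mt1 was at 13.98 on the vehicle array and 14.20, 14.38 and 14.17 on the CCl4 arrays. Cat, catalase, stood at 13.36 on the vehicle array and 11.66, 11.50 and 11.70 on the CCl4 arrays, a difference of -1.74 ± 0.19. Of 28 genes of endoplasmic reticulum (ER) stress, ATF4 and serine synthesis, 6 rose (21.4%) and 4 fell (14.3%). Apart from Psat1, the ER folding enzymes Pdia6 and Pdia3 rose by 1.17 ± 0.21 and 1.04 ± 0.20, while Herpud1, of ER-associated degradation, and Chac1, an ATF4 target, fell by differences of -1.19 ± 0.21 and -1.82 ± 0.27. The other serine synthesis genes Phgdh and Psph were on the array and not above background on enough arrays to be tested. The ATF4 site TGATGNAAT was in none of the 26 promoters of that list and in 0.387% of the promoters of tested genes. Heat shock chaperones rose in 5 of 21 members (23.8%) and fell in 1 (4.76%), led by Hspe1 at 0.91 ± 0.19; without CCl4 replicate 2 only 1 was called higher.

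Acute phase and STAT3 response genes rose in 13 of 32 members and fell in 2, and in 8 and 2 of the 27 above background on all 4 arrays. Besides Lcn2 and Socs3, the serum amyloids were higher: Saa1 stood at 5.98 on the vehicle array and 8.43, 9.13 and 9.69 on the CCl4 arrays, a difference of 3.10 ± 0.40, and Saa2 rose from background to 8.65, 9.08 and 9.32, at least 8.62-fold. Saa3 stood at 8.38 on the vehicle array and 10.06, 10.47 and 11.41 on the CCl4 arrays, a difference of 2.26 ± 0.43, a call lost with a trended robust variance (adjusted p = 0.0801). CCl4 replicate 3 was highest for all 3 serum amyloids. Lrg1, a secreted glycoprotein, stood at 11.83 on the vehicle array and 13.69, 13.51 and 13.78 on the CCl4 arrays, a difference of 1.82 ± 0.20, and Osmr, the oncostatin M receptor, rose at least 3.79-fold. Hp, haptoglobin, was at 13.99 on the vehicle array and 13.97, 14.13 and 14.17 on the CCl4 arrays, and Orm1 differed by 0.53 ± 0.19 (adjusted p = 0.0525); neither passed the test. Crp fell by -0.79 ± 0.19 in difference, and Hamp2, described above and counted on this list too, by -4.76 ± 0.25.

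Neutrophil genes were sparse, with 6 of 24 tested, of which 5 rose, and 2 of the 6 were above background only after CCl4. Lcn2, given above with the acute phase genes, is counted on this list too. S100a8, a subunit of calprotectin, stood at 8.48 on the vehicle array and 11.73, 10.07 and 11.97 on the CCl4 arrays, a difference of 2.77 ± 0.61, and its partner S100a9 at 7.51 on the vehicle array and 10.87, 9.25 and 11.52 on the CCl4 arrays, a difference of 3.04 ± 0.68. Prtn3, the granule protease proteinase 3, rose from background to 8.73, 8.15 and 9.78, at least 7.85-fold. With a trended robust variance the calls of S100a8 and S100a9 were lost (adjusted p = 0.198 and 0.206). In all 3, CCl4 replicate 2 was the lowest of the CCl4 arrays and replicate 3 the highest. The summed intensity of the neutrophil markers was 529.9 after vehicle and 5256, 1678 and 7006 after CCl4, and their part in other differences between CCl4 arrays was not tested. Of the 4 markers summed, only S100a8 and S100a9 were tested. Ngp was not above background on any array, and Ltf not on enough arrays.

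Genes of monocytes and infiltrating macrophages rose in 18 of 39 members and fell in 3, and in 14 and 3 of the 34 above background on all 4 arrays. Cd63, a membrane protein of lysosomes and exosomes, stood at 7.40 on the vehicle array and 10.92, 11.32 and 11.18 on the CCl4 arrays, a difference of 3.74 ± 0.21. S100a11 stood at 8.78 on the vehicle array and 12.35, 12.20 and 12.61 on the CCl4 arrays, a difference of 3.61 ± 0.21, Lgals1, galectin-1, at 7.83 on the vehicle array and 11.18, 10.69 and 11.01 on the CCl4 arrays, a difference of 3.13 ± 0.23, and S100a6 rose by 3.14 ± 0.23. These are made by many cell types besides macrophages. Of the more restricted genes, Lgals3, galectin-3, stood at 8.49 on the vehicle array and 10.15, 9.86 and 10.39 on the CCl4 arrays, a difference of 1.65 ± 0.23, and Ms4a6d, of monocytes and macrophages, rose by 1.36 ± 0.23. Cd14, the endotoxin co-receptor, rose by 2.20 ± 0.22. Lyz2, lysozyme, had 10.43, 10.04 and 11.04 against 10.31, on both sides of vehicle, and Adgre1, which codes for F4/80, differed by 0.14 ± 0.19. Of the list's marker genes, Ccr2 was not above background on any array.

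Of 18 tested genes of Kupffer cells, the resident macrophages of liver, 1 was higher and 1 lower (5.56% each, against 18% and 17.5% of all genes), and 2 were higher without CCl4 replicate 1 and 2 lower without replicate 3. Clec4f, a lectin found on Kupffer cells, stood at 9.56 on the vehicle array and 9.16, 9.20 and 9.30 on the CCl4 arrays, a difference of -0.34 ± 0.18. Vsig4, a complement receptor, differed by -0.07 ± 0.20 and Timd4, a receptor for dying cells, by 0.01 ± 0.19, none past the test. The members called were Id3, which rose by 1.29 ± 0.21, and C6, which fell by -0.90 ± 0.26 in difference and is also made by hepatocytes.

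**Figure D3:**
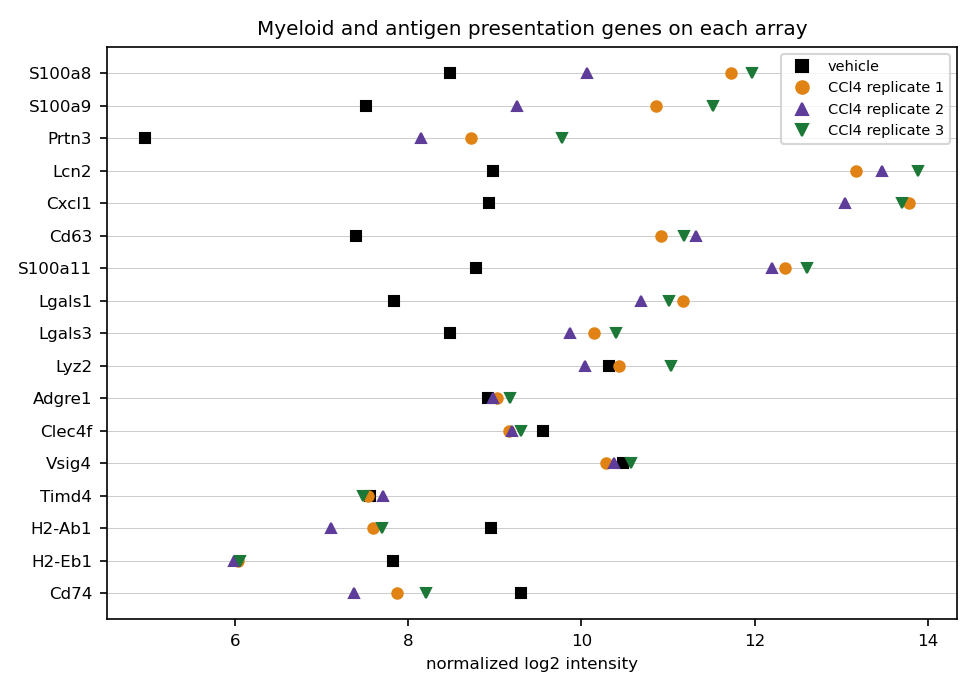
Normalized log2 intensity (x axis) of neutrophil, macrophage, Kupffer cell and antigen presentation genes on the vehicle array and on each CCl4 array. S100a8, S100a9 and Prtn3 are lowest on replicate 2 among the CCl4 arrays, Clec4f, Vsig4 and Timd4 lie near the vehicle array, and H2-Ab1, H2-Eb1 and Cd74 lie below it on all 3 CCl4 arrays.

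Chemokine and NF-κB feedback genes rose in 11 of 23 members (47.8%) and fell in 5 (21.7%), against 18% and 17.5% of all genes. The number that fell was 2 without CCl4 replicate 2 and 3 without replicate 3. Above background on all 4 arrays were 16, of which 7 rose and 5 fell. Beside Cxcl1, Nfkbiz, a nuclear IκB protein, rose from background to 8.68, 8.27 and 8.65, at least 6.14-fold. Ccl9 stood at 11.81 on the vehicle array and 13.81, 13.90 and 13.66 on the CCl4 arrays, a difference of 1.98 ± 0.19, and the adhesion molecules Vcam1 and Icam1 rose by 1.21 ± 0.18 and 1.04 ± 0.19. Ccl2, which draws Ccr2-bearing monocytes, was dim, at 5.91, 5.99 and 6.23 after CCl4 against 4.91, at least 1.1-fold higher. Cxcl9, an interferon-γ-induced T cell chemokine, fell from 9.43 to 7.01, 6.84 and 6.84, a difference of -2.53 ± 0.19 (adjusted p = 5.55e-05).

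Antigen presentation genes fell in 9 of 19 members and rose in 2, and in 7 and 1 of the 15 above background on all 4 arrays. The class II genes H2-Ab1 and H2-Eb1 stood at 8.95 on the vehicle array and 7.59, 7.11 and 7.69 on the CCl4 arrays, and at 7.82 on the vehicle array and 6.03, 5.98 and 6.05 on the CCl4 arrays, with differences of -1.49 ± 0.25 and -1.80 ± 0.18. Cd74, the class II invariant chain, fell by -1.48 ± 0.29 in difference. Class I genes fell as well: H2-K1 stood at 10.56 on the vehicle array and 9.18, 9.34 and 9.40 on the CCl4 arrays, a difference of -1.25 ± 0.19, and H2-D1 and H2-T23 fell by differences of -1.11 ± 0.22 and -1.37 ± 0.18. Tapbp, tapasin of the class I loading complex, was not above background after CCl4, at least 2.56-fold lower. Nlrc5, a transactivator of class I genes, went the other way, from background to 6.39, 6.42 and 6.01. Interferon-stimulated genes had counts close to all genes, 5 of 33 higher and 6 lower, or 2 to 3 lower with any 1 CCl4 replicate left out, with Isg15 higher by 1.03 ± 0.20 and Igtp, an interferon-γ-induced GTPase, lower by -0.76 ± 0.19 in difference. Few lymphocyte genes were measurable, 4 of 28 T and natural killer cell genes and 2 of 17 B cell genes. Of the 4, 1 rose and 1 fell, and of the 2 B cell genes 0 rose and 1 fell. The T and natural killer cell gene that rose was Prf1, perforin, by 1.59 ± 0.19.

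The receptor and target genes of Il4 and Il13 were read as they stand in mice without these ligands. Of 39 such genes on the array, 15 were tested, 5 rose and 3 fell, against 18% and 17.5% of all genes, and 4 rose and 3 fell of the 14 above background on all 4 arrays. Stat6, the signal transducer of both cytokines, stood at 6.77 on the vehicle array and 6.02, 6.10 and 5.87 on the CCl4 arrays, a difference of -0.77 ± 0.19. Il13ra1, a receptor chain, had 9.94, 9.71 and 10.09 against 9.31 and missed the threshold (adjusted p = 0.0511). Il33, an alarmin released from damaged tissue that drives type 2 cytokines, stood at 6.64 on the vehicle array and 7.77, 7.96 and 7.79 on the CCl4 arrays, a difference of 1.20 ± 0.19. Mrc1, the mannose receptor of alternatively activated macrophages, differed by 0.19 ± 0.20, and the chemokine Ccl24 had 5.93, 6.43 and 6.73 against 6.29; neither passed the test. Retnla, Chil3, Ccl11 and Ccl17, known type 2 targets, were not above background on enough arrays to be tested. Cish and Il1rn, also on this list, rose and respond to other cytokines too.

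Stellate cell and matrix genes rose in 11 of 36 members (30.6%) and fell in 7 (19.4%), or 4 without CCl4 replicate 2. The shares of all genes were 18% and 17.5%, so the share that fell was close to that of all genes. Of these 36, 6 were not above background after vehicle and 4 not after CCl4. Among the 23 above background on all 4 arrays 6 rose and 2 fell, against 16.2% and 15.7% of all such genes. Acta2, smooth muscle actin, the mark of activated stellate cells, was at background after vehicle (5.56) and at 9.32, 8.71 and 9.75 after CCl4, at least 10.2-fold higher (adjusted p = 0.000174). Timp1, the inhibitor of matrix proteases, rose from background to 7.98, 7.53 and 8.14, at least 3.93-fold. Tpm1, tropomyosin, stood at 9.84 on the vehicle array and 11.23, 11.42 and 11.52 on the CCl4 arrays, a difference of 1.55 ± 0.20. Col3a1, a fibrillar collagen, had 8.30, 7.13 and 8.57 against 7.44, with replicate 2 below vehicle, and did not pass the test. Without replicate 2 its difference was 0.995 and passed (adjusted p = 0.0308). Col1a1 and Col1a2 were not above background on enough arrays to be tested. Lrat, which stores vitamin A in quiescent stellate cells, ended below background, at least 1.39-fold lower, and the basement membrane collagen Col18a1, also made by hepatocytes, fell by -0.98 ± 0.18 in difference. Hgf, the hepatocyte growth factor of these cells, rose to 6.67, 6.43 and 6.23 from background, at least 1.45-fold.

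Sinusoidal and vascular endothelial genes were higher in 3 of 26 members and lower in 4 (11.5% and 15.4%), or 2 without CCl4 replicate 2. Over all genes, 18% were higher and 17.5% lower. Dnase1l3, a secreted nuclease of sinusoidal cells, stood at 8.80 on the vehicle array and 7.85, 7.78 and 7.74 on the CCl4 arrays, a difference of -1.01 ± 0.18, and Ehd3 at 8.64 on the vehicle array and 7.73, 7.73 and 7.73 on the CCl4 arrays, a difference of -0.91 ± 0.18. Of 11 tested genes of cholangiocytes, progenitors and fetal liver, 7 rose and 0 fell, or 1 at an unadjusted p under 0.05 in limma. Of the 11, 4 were above background only after CCl4, and of the 6 above background on all 4 arrays 4 rose. Beside Ly6d and Afp, Tspan8, a tetraspanin, rose at least 2.48-fold, and the keratins Krt8 and Krt18, which hepatocytes make as well, rose by 1.32 ± 0.18 and 1.61 ± 0.23. The cholangiocyte markers Krt19 and Krt7 were not above background on any array.

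Of 46 nuclear-coded respiratory chain subunits, 4 rose and 3 fell (8.7% and 6.52%), or 1 without CCl4 replicate 2, and the median was 0.12. Of 25 iron and heme genes, which include Hamp2, 6 rose and 5 fell (24% and 20%), or 3 without CCl4 replicate 2. Over all genes, 18% rose and 17.5% fell. Tmprss6, which restrains hepcidin, fell from 10.91 to 9.41, 9.39 and 9.31, and Tfrc, the transferrin receptor, rose by 1.03 ± 0.20. Of 5 erythroid genes, 0 were called by limma and 0 had an unadjusted p under 0.05. Hba-a1 had 12.59, 12.98 and 13.38 against 13.33. Upk3b, of mesothelium, was dim and ended below background after CCl4.

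**Figure D4:**
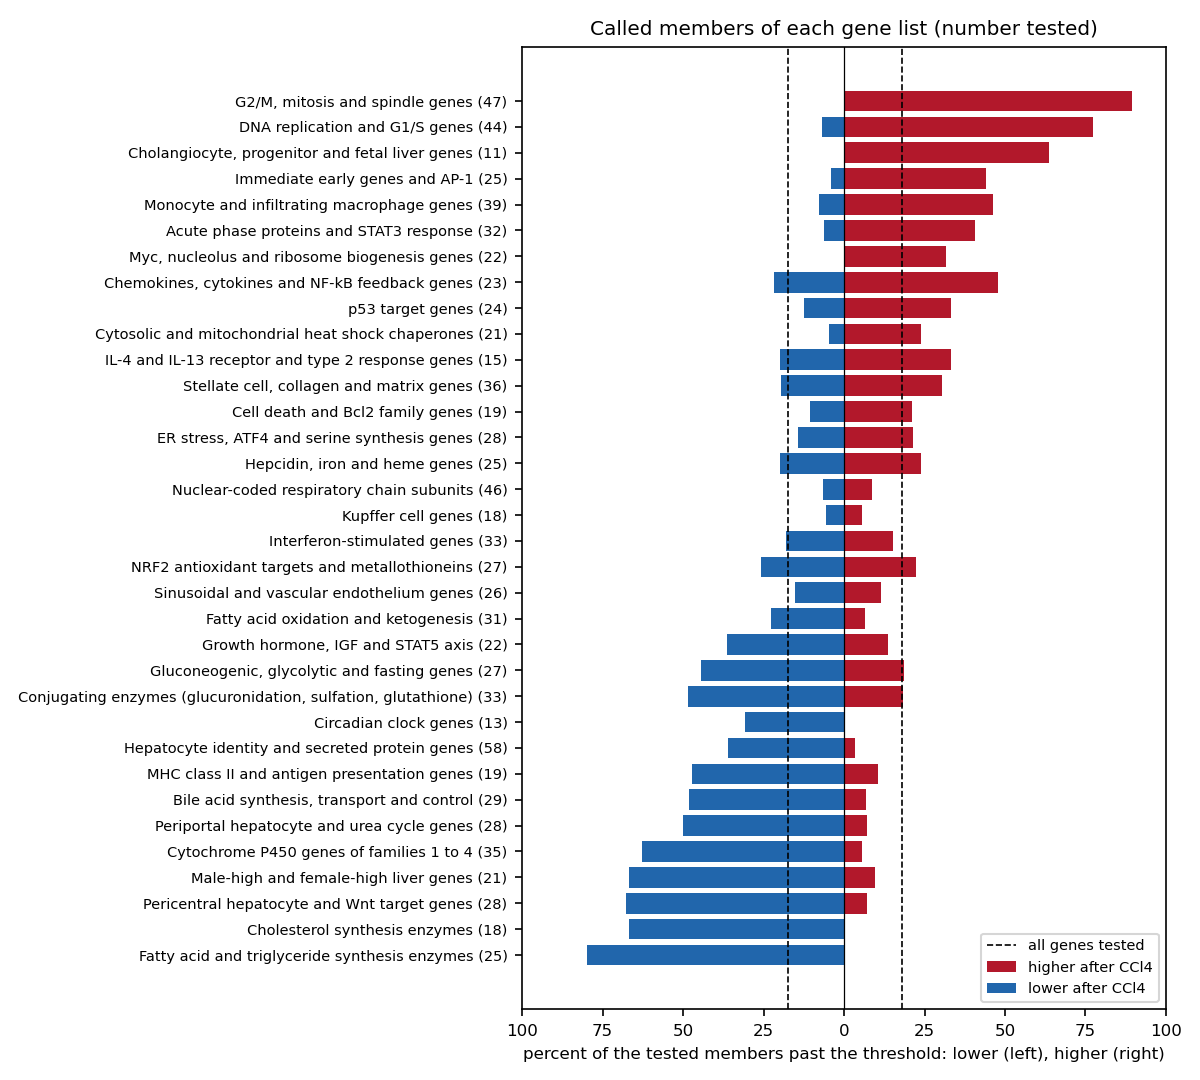
Percent of the tested members of each gene list with at least 10 tested members (number in brackets) that were called higher (red, right) or lower (blue, left) after CCl4; dashed lines give the 18% and 17.5% of all genes tested. Mitosis is drawn at the top with 42 of 47 higher, of which 26 could pass the filter only by being higher; among genes above background on all 4 arrays the counts were 15 of 19 for mitosis and 24 of 30 for replication. Fatty acid synthesis is drawn at the bottom, with 20 of 25 lower, or 16 of 20 among such genes. A gene can be on several lists, as Cyp1a2 is on the pericentral and P450 lists.

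**Figure D5:**
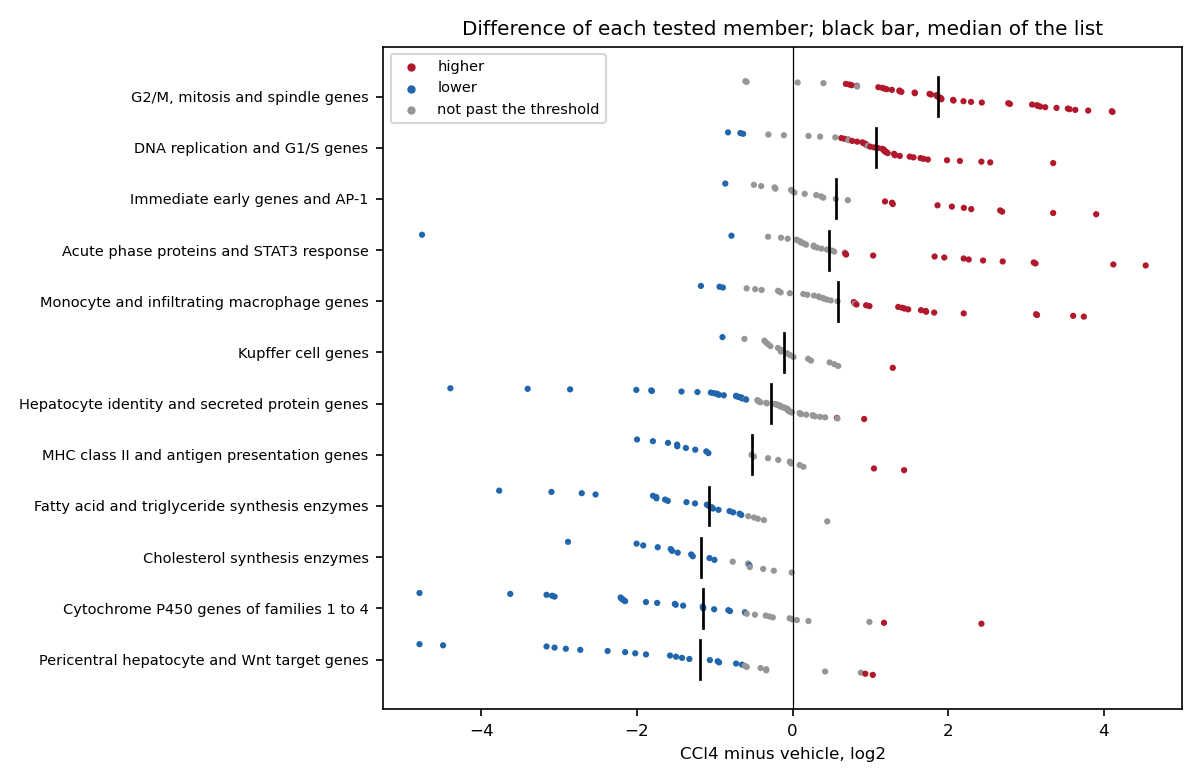
CCl4 minus vehicle on the log2 scale (x axis) for each tested member of 12 lists, coloured by call, with a black bar at each list's median. The median is 1.86 for mitosis and 1.07 for replication genes (1.40 and 1.05 over the members above background on all 4 arrays), and it lies between -1.20 and -1.08 for the 4 lists at the bottom. The P450 and pericentral lists share members, Cyp1a2 among them.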

How the data were processed

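Liver RNA was labelled as biotinylated cRNA and hybridised to Illumina bead arrays, per the labels' protocols. The deposited raw table holds a linear bead intensity per probe and array with a detection p-value, per the file headers. The value table that the authors deposited is that intensity after subtraction of a single number on each array (48.6 to 52.6, leaving array medians of 12.3 to 14.6), and served only as an alternative. Its scale is linear and its direction that of the raw table; why that number was subtracted, and whether it centres the arrays on purpose, is unknown. The sources used here do not name the scanner software.

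All 4 knockout arrays went through neqc (background correction, quantile normalization, offset 16) of limma 3.58.1 in R 4.3.3, which infers the negative controls from the detection p-values. The 9618 probes kept had a detection p under 0.01 on the vehicle array or on all 3 CCl4 arrays, and the brightest probe stood for each gene. Symbols came from the platform annotation (1 symbol for 23978 probes, several for 0, none listed for 1719), and 23962 of them were found by Entrez identifier in RefSeq's table for GRCm38.p6. Of 1636 genes with several kept probes, 9 had calls in opposite directions (B4galt3, Clec7a, Ctsa, Egfl7, Gemin2, Mrpl49, Tial1, Txnl4a and Vmp1). Differences were tested 2-sided with lmFit and eBayes (2 residual and 6.55 prior degrees of freedom), with Benjamini-Hochberg adjustment over 6919 genes. The procedure was tested on simulated data in which the vehicle array had the same spread as the CCl4 arrays. That run therefore cannot speak for an unlike vehicle spread. A bound divides the brighter group's mean by a dim-side mean, in which each array counts with its lowest detected signal, or with the probe's signal where that was larger. The number of arrays limits the precision.

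Named were the 15 largest called changes in each direction without overlap of arrays and without predicted names, and of each list described in part, the 5 members with the smallest p and those with a defining role. Of 245 tested genes named, 138 came from the largest changes or smallest p, 92 were other list members taken for their role or as examples with their values in view, and 15 were in no list and chosen after their values were seen (Xist, Uty and those among the other observations). The members and the 40 gene lists were chosen with earlier results of these data known, so list counts are descriptions beside the share of all genes. Counts over genes above background on all 4 arrays were added after the values had been seen. Promoters are the first listed per gene in RefSeq's table; 5679 of 6919 tested genes had one. Alternatives were other normalizations, offsets, probe filters, probe rules, variance moderation, all 8 arrays, and leaving out each CCl4 array.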

Additional observations from a re-analysis of the deposited data

How the results depend on the processing

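No paired analysis was possible because the 2 groups share only the replicate number 1. The 13 alternatives called 1669 to 2699 genes against 2462, with 0 to 1 gene called in the opposite direction, and higher genes made up 49.9% to 55.9% of calls. Leaving out 1 CCl4 array called 1752 (without replicate 2), 2155 (without replicate 3) and 2272 genes (without replicate 1). Testing all probes gave 875 higher and 794 lower calls against 1248 and 1214; that setting tests 16593 genes. Of 3173 values of 245 named genes under the alternatives, 3105 kept their direction and their side of the threshold, 40 lost the call, 20 gained one and 8 changed sign. The sign changes were all of genes not called, and the cause was not tested. With median scaling Apoa1 stood at 0.0024 and Sqle at 0.0082. Leaving out 1 CCl4 array gave a range of -0.11 to 0.29 for Ccl24, -0.14 to 0.78 for Gadd45g, -0.13 to 0.022 for Hnf4a, -0.080 to 0.42 for Lyz2, -0.16 to 0.15 for Sqle and -0.055 to 0.061 for Timd4. With all probes tested, the calls of Asl, C6, Cd74, Cyp2c55, Dusp1, Gclc, Gstp2, Hmgcs1, Igfbp1, Mup20, Otc, S100a8, S100a9, Saa3, Slc1a4 and Slc51b were lost at unchanged differences. A fit over all 8 arrays lost those of Abcc2, Ass1, Dusp1, Gclc, Hspe1 and Mup20. Hmox1, Il13ra1 and Orm1, just over the threshold, passed it with an offset of 50, with the mean of probes and with trended robust moderation, and Alb passed it without replicate 1 (-0.62). The calls of Cyp2c55, Inmt, S100a8, S100a9 and Saa3 were lost with trended robust moderation. Among called named genes that kept the call, the difference moved by over 1.5 times with the deposited values or an offset of 50 for 12 genes, and for Tapbp in the 8-array fit (-1.12 against -2.00); all 13 were not above background on 1 side.

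With 1 vehicle array the spread among vehicle livers was not measured, and any property of that array enters every difference. Genes whose signal is near background carry the least information: 352 genes were not above background after vehicle and 223 were not on any CCl4 array.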

Other observations

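Gene families were counted by symbol after the values had been seen, so the counts below describe the arrays and test nothing. Cytosolic ribosomal proteins, the structural proteins of the ribosome, were higher in 30 of 53 tested genes (20 without CCl4 replicate 2) and lower in 1, with a median difference of 0.63 on the log2 scale against -0.02 over all genes. Rpl22l1, a paralog of Rpl22, stood at 7.79 on the vehicle array and 10.02, 9.67 and 10.18 on the CCl4 arrays. Small nuclear ribonucleoprotein and Lsm genes, which build the spliceosome and handle RNA ends, were higher in 11 of 19 and lower in 0 (1 at an unadjusted p under 0.05 in limma), and Snrpd1 differed by 1.26 ± 0.18. Annexins, which bind calcium and membranes, were higher in 3 of 6. Anxa2 stood at 9.54 after vehicle and 13.06, 13.07 and 12.996 after CCl4, and Anxa3 at 7.45 after vehicle and 10.88, 10.65 and 11.01 after CCl4. Aldehyde dehydrogenases were lower in 6 of 11 and higher in 1, and Aldh1l1, an enzyme of folate metabolism, stood at 11.94 after vehicle and 9.48, 9.12 and 9.52 after CCl4.

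Several called genes outside every list were as large, and were picked after their values had been seen. Golm1, a Golgi membrane protein, differed by 3.51 ± 0.21, Apoc2, the activator of lipoprotein lipase, by 3.02 ± 0.19, and Nrg4, a growth factor of the neuregulin family, by 2.85 ± 0.18. Serpina6, which carries corticosteroids in plasma, stood at 11.91 after vehicle and 9.44, 9.25 and 9.16 after CCl4. Upp2, uridine phosphorylase, differed by -3.04 ± 0.25. Gbp11, a guanylate-binding protein, was not above background after CCl4 and was at least 6.65-fold lower. Xist stood at 8.26 after vehicle and 10.85, 10.58 and 11.03 after CCl4, a difference of 2.56 ± 0.22 (adjusted p = 0.000116), while it was above background on all 4 arrays.

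The CCl4 arrays differed most from each other in a few genes. Among 3499 genes above background on all 3 CCl4 arrays with a mean level over 8, the largest standard deviations were those of S100a9 (1.17), S100a8 (1.04), Inmt (0.98), Gadd45g (0.94) and Pim3 (0.85). CCl4 replicate 2 was the lowest of the 3 for each of these genes. Gadd45g stood at 10.03 after vehicle and 11.41, 9.56 and 10.21 after CCl4, and Pim3 at 10.29 after vehicle and 10.78, 9.14 and 9.54 after CCl4; neither passed the test. Without CCl4 replicate 1 the difference of Pim3 was -0.95 and passed (adjusted p = 0.0164).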
